A study of Mus musculus with 13 samples.

Results

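The 10 genes described here are mediators and sensors of innate inflammation, chosen by name: the cytokines Tnf, Il1b and Il6, the interleukin-1 receptor antagonist Il1rn, the microbial sensors Cd14, Tlr2, Tlr4 and Nlrp3, and the inducible enzymes Nos2 and Ptgs2. All 10 were found by their Entrez identifiers among the 23079 genes of one deposited count table and the 23725 genes of each of the other tables. Liver RNA came from male C57 mice of 3 months in 3 groups. The no BDL group held 5 mice that were labelled as not treated. The miR-Ctrl BDL group held 4 mice with bile duct ligation (BDL), the surgical closure of the bile duct that makes bile back up into the liver, which received a control oligonucleotide. The anti-miR-873-5p BDL group held 4 ligated mice that received a hairpin oligonucleotide inhibitor of the microRNA miR-873-5p. Either oligonucleotide was injected into the tail vein with a lipid carrier at 60 µg per mouse on days 3 and 5 after ligation, and livers were taken on day 7. No sham-operated or carrier-injected mice without ligation were analysed here, so ligation, surgery and injection cannot be told apart in a comparison with no BDL. Each mouse gave 1 library of whole-liver RNA.

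Bacterial products that reach the liver through the portal blood are bound by CD14, which hands lipopolysaccharide to the receptor TLR4 and lipopeptides to TLR2. The signal passes through MyD88 to the transcription factor NF-kB, which switches on the genes of TNF, interleukin-6, pro-interleukin-1β, the inflammasome sensor NLRP3, inducible nitric oxide synthase (Nos2) and cyclooxygenase-2 (Ptgs2). Assembled NLRP3 activates caspase-1, which cuts pro-interleukin-1β into its active form, and the product of Il1rn occupies the interleukin-1 receptor without signalling. In liver these genes are known mainly from Kupffer cells, recruited monocytes and neutrophils, and hepatocytes can also produce several of them, such as Nos2, Cd14 and Il1rn.

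The microRNA that the inhibitor was designed against is shown first, since its seed (bases 2 to 8, in capitals) sets which transcripts could pair with it. The sequence is that of RefSeq on GRCm38.p6, at chr4:36668556-36668576 on the minus strand.
mmu-miR-873a-5p: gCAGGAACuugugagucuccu
The 7 bases that complement this seed were searched in the annotated 3′ untranslated regions of GENCODE M21. Of the 10 genes, 3 held 1 such stretch each, namely Il1rn, Tlr2 and Ptgs2, against 14.9% of 21020 genes. In these 30-base stretches the match is in capitals.
Il1rn, from base 1030 of the 3′ untranslated region: gaagtagctatGTTCCTGactgtttcctct
Tlr2, from base 13: ttctccacccaGTTCCTGacttccttaact
Ptgs2, from base 1475: aaatatagggaGTTCCTGacaagaaatttc
Each of the 3 matches was followed by an A. The annotated 3′ untranslated region of Gnmt, the gene that the inhibitor is meant to restore, is 136 bases long and held 0 matches. A match of letters is a description and does not show that the site is used.

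Upstream sequence was read because several of the 10 genes are textbook targets of NF-kB. RefSeq start windows (250 bases before to 50 after the start) were given for 7 of the genes in 10 windows, and of these, 3 of the 10 windows (1 each of Il6, Tlr2 and Nlrp3) held the 10-letter NF-kB consensus on either strand, against 8.46% of 32851 windows of all genes. The AP-1 letters TGANTCA stood in 2 of the 10 windows, of Il6 and Il1rn, against 7.81% of all windows, and the C/EBP letters TTNCNNAA in 9 of the 10, against 40.7% of all windows. Il1rn windows 2 and 3 overlap and hold the same C/EBP matches, so these were counted in both. By gene, NF-kB letters were found in 3 of the 7 genes, AP-1 letters in 2 and C/EBP letters in 7. The shares of all windows are not per gene. The NF-kB matches overlapped no match of the other motifs. The 250 bases before the start are given for the 3 genes with an NF-kB match, with the match in capitals.
Il6, chr5:30012864-30013113, plus strand: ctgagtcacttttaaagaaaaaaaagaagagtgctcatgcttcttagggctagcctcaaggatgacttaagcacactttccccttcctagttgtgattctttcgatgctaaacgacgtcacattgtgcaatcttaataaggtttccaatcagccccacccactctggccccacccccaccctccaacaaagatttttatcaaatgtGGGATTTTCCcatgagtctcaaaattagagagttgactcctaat
Tlr2, chr3:83841609-83841858, minus strand: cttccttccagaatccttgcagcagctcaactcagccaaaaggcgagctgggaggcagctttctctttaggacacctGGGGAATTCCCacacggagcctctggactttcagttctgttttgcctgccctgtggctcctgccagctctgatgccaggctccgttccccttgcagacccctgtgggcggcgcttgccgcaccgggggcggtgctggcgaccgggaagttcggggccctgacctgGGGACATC
Nlrp3, chr11:59541319-59541568, plus strand: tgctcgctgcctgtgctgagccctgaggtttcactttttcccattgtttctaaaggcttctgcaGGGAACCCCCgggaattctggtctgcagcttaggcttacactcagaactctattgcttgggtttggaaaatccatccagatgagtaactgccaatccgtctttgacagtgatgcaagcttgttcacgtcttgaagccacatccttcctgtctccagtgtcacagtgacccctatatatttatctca
The Il6 match began 44 bases before the start and the Nlrp3 match 186 bases before it. Tlr2 held 2 overlapping matches from 173 and 172 bases before the start and another from 8 bases before it, which runs past the last base shown.

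The 3 tables hold from 12185333 to 19689037 counted reads for a mouse. The table of both ligated groups holds 3 mice of each, without miR-Ctrl BDL mouse 3 and anti-miR-873-5p BDL mouse 2, which appear in the tables against no BDL. Levels are given as normalized read counts scaled for library size, in the unit CPM (the reads of a gene relative to those of its whole library), scaled by TMM over all 13 mice on the 22246 genes whose counts were identical in every table where a mouse appears, and differences are log2 fold changes from edgeR's quasi-likelihood test on each table, called at a Benjamini-Hochberg adjusted p under 0.05. The Il1b counts differed between the tables (54 against 36 in no BDL mouse 1), so its levels are those of the tables with anti-miR-873-5p BDL mice, except for miR-Ctrl BDL mouse 3, which is only in the other table. Gnmt ran from 1137 to 1841 CPM in no BDL and from 456.4 to 627.5 CPM in miR-Ctrl BDL. With anti-miR-873-5p it stood at 942.0, 1462, 562.0 and 301.8 CPM in mice 1 to 4, so mouse 4 lay below every miR-Ctrl BDL mouse. Among the libraries, 2 stood apart for these genes: miR-Ctrl BDL mouse 3, with the highest level of its group in 9 of the 10 genes, and no BDL mouse 5, with the highest of its group in 6. For the genes named, where leaving one of them out changed a call or moved a fold change by over 1.5 times, the value without it is given.

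**Figure D1:**
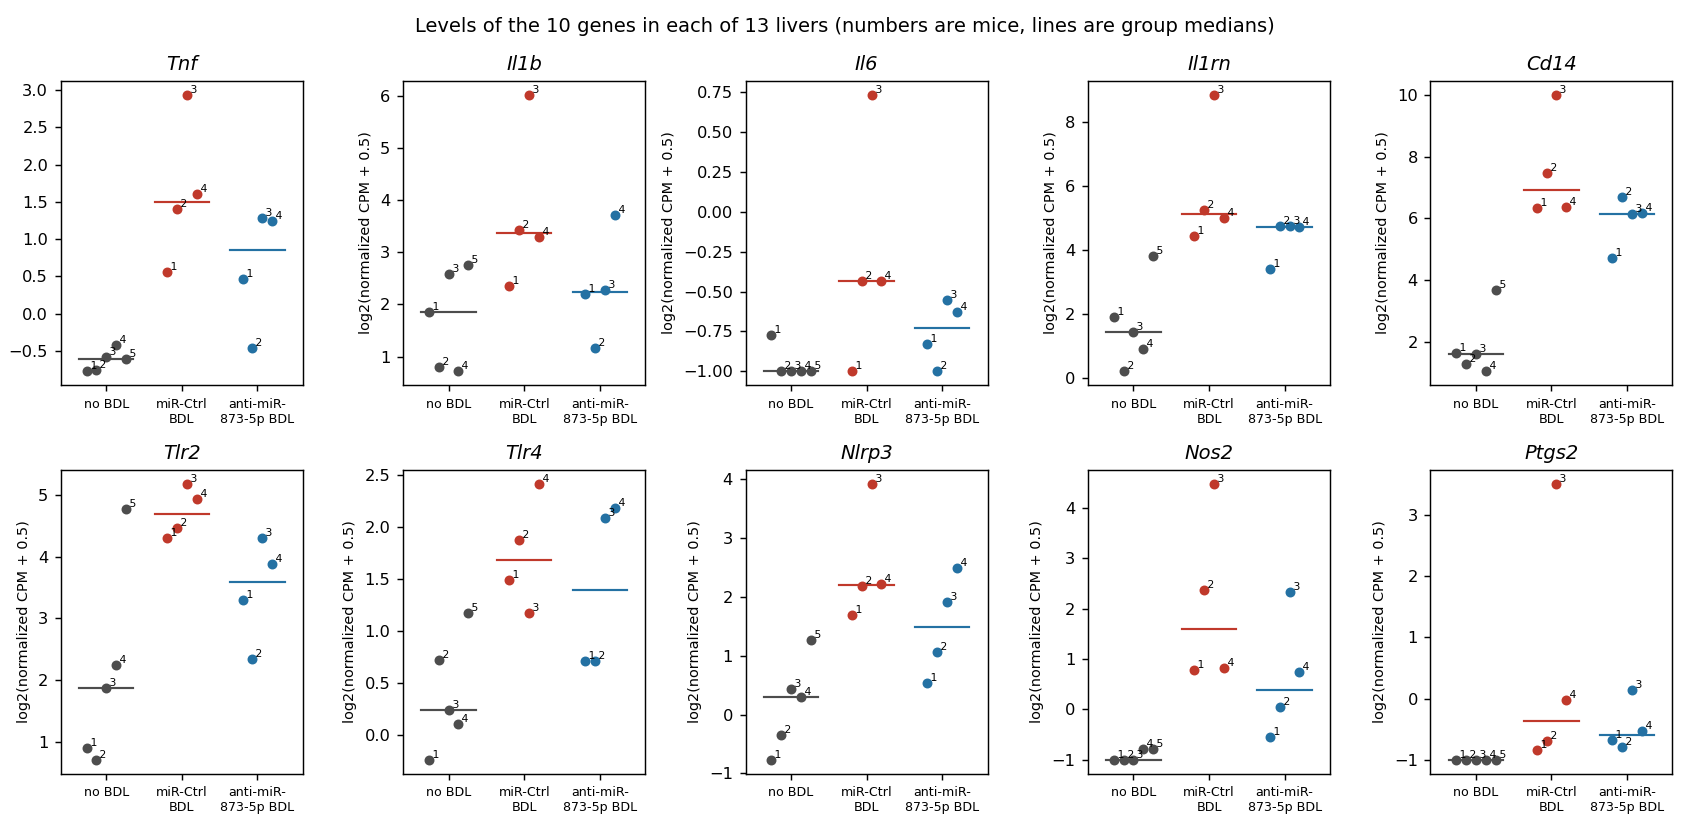
Each panel shows 1 gene in 13 livers, as log2 of the normalized CPM plus 0.5, by group, with mouse numbers beside the points and group medians as lines; Il1b of miR-Ctrl BDL mouse 3 comes from a table with slightly higher Il1b counts. MiR-Ctrl BDL mouse 3 is the highest point of all 13 for every gene except Tlr4, and no BDL mouse 5 reaches the ligated mice for Tlr2.

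In livers with BDL and the control oligonucleotide, most of these genes were higher than in no BDL livers. Of the 8 that passed the filter on low counts, 7 rose: Tnf, Il1b, Il1rn, Cd14, Tlr4, Nlrp3 and Nos2. Over all 13072 genes tested, 19.1% rose. Tlr2 did not pass the adjusted threshold, and Il6 and Ptgs2 had too few counts for the fit. Of the 8 tested genes, 5 (Tnf, Il1rn, Cd14, Nlrp3 and Nos2) had every miR-Ctrl BDL mouse above every no BDL mouse, against 14.3% of all genes tested. Ptgs2, below the filter, did so too. Tnf and Nos2 had at most 3 counts in any no BDL mouse and passed the filter only through the miR-Ctrl BDL mice. They could be tested only because they were high there, so the filter favoured their place among the 7 and the 5. In whole liver, more cells of a type and more RNA per cell cannot be told apart.

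In livers with BDL and anti-miR-873-5p, fewer of the genes passed. Of the 6 that passed the filter, 2 rose, Il1rn and Cd14, where 13.1% of 13130 genes tested rose. Il1b, Tlr2, Tlr4 and Nlrp3 did not pass the threshold, and Tnf, Il6, Nos2 and Ptgs2 were below the filter. Of those 6, the mice lay above every no BDL mouse for 1, Cd14, against 9.77% of all genes tested. Below the filter, Nos2 and Ptgs2 did so too. When every gene with at least 1 count was kept, 5 of the 10 rose in this comparison, against 10.6% of 18361 genes. In the other comparison 8 of the 10 then rose, against 15.1% of 18087 genes, so the filter set part of the count. Both comparisons use the same 5 no BDL mice, and their counts are set side by side only; the difference between the ligated groups is tested further on.

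**Figure D2:**
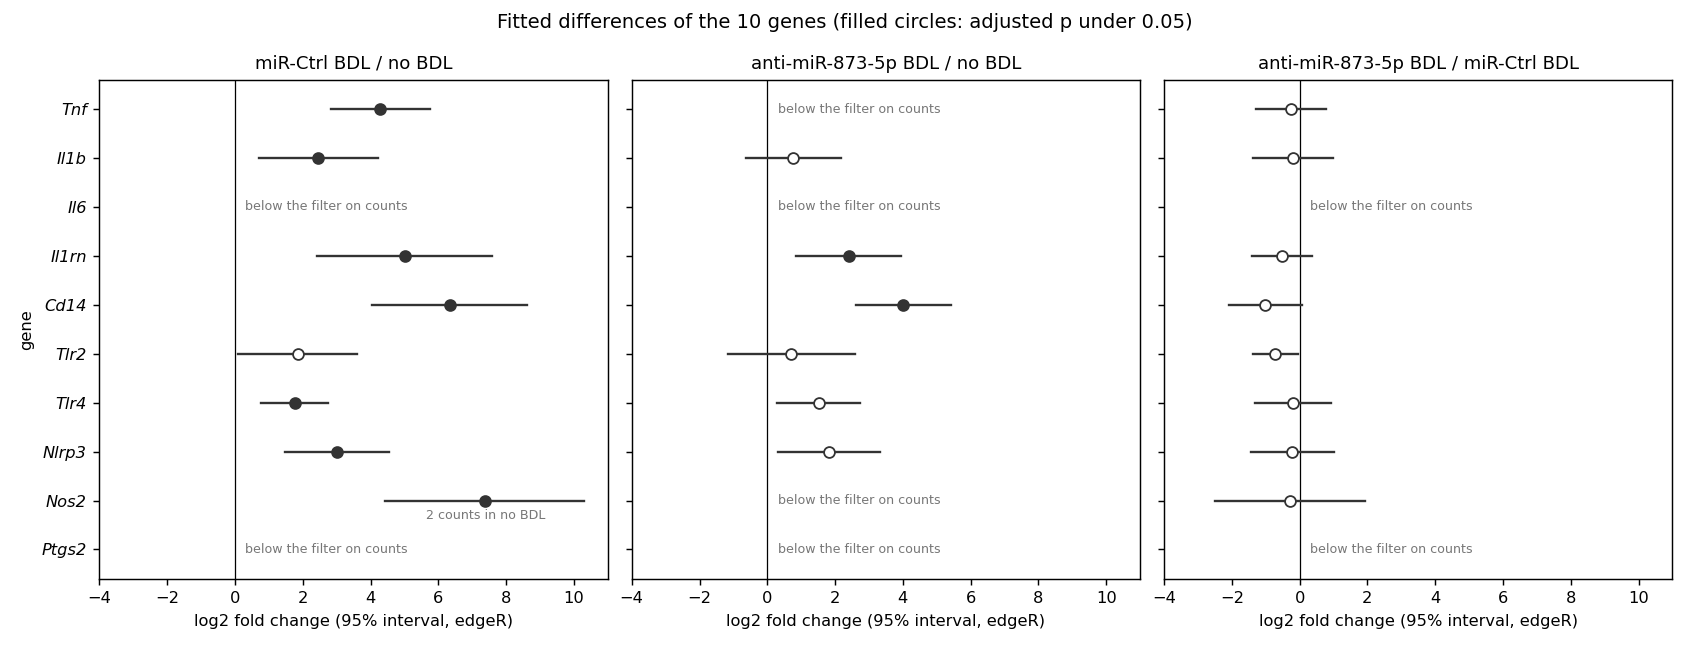
Log2 fold changes from edgeR with 95% intervals for the 10 genes in each comparison; filled circles passed an adjusted p of 0.05, and genes below the filter are named as such. Filled circles number 7, 2 and 0 from left to right, and the fitted value of Nos2 on the left rests on 2 counts in no BDL.

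Tnf (Entrez 21926, chr17:35199367-35202007, GRCm38.p6) encodes the cytokine that Kupffer cells release within hours of contact with lipopolysaccharide. It was at 0.0861, 0.0951, 0.170, 0.245 and 0.159 CPM in no BDL mice 1 to 5, from 1 to 3 counts each. In miR-Ctrl BDL mice 1 to 4 it was at 0.972, 2.15, 7.15 and 2.54 CPM, and in anti-miR-873-5p BDL mice 1 to 4 at 0.881, 0.226, 1.93 and 1.87 CPM. Every miR-Ctrl BDL mouse was above the no BDL range, whereas anti-miR-873-5p BDL mouse 2, with 3 counts, stood inside it. With miR-Ctrl its log2 fold change came to 4.29 ± 0.65 (SE; adjusted p = 0.00111), and without mouse 3 it was 3.55 (adjusted p = 0.000417). Tnf was below the filter against no BDL in the anti-miR-873-5p table, where an exact two-sided permutation test of the levels gave p = 0.0159 (4 against 5 mice, smallest possible p 0.00794), 1 of 8 such tests. The ratio of summed counts there was 8.58 (95% interval of counting error 4.32 to 19.4).

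Il1b (Entrez 16176, chr2:129364569-129371164) encodes pro-interleukin-1β. It was at 3.10, 1.24, 5.54, 1.15 and 6.28 CPM in no BDL mice, at 4.61, 10.3, 64.7 and 9.37 CPM in miR-Ctrl BDL mice, and at 4.09, 1.73, 4.34 and 12.7 CPM in anti-miR-873-5p BDL mice. No BDL mice 3 and 5 were above the lowest mouse of either ligated group, so the groups overlapped. The log2 fold change was 2.45 ± 0.79 in miR-Ctrl BDL (adjusted p = 0.0345), but 1.11 without mouse 3 (adjusted p = 0.126), so that its call rested on that mouse; leaving out any 1 of no BDL mice 1 to 4 also ended it (adjusted p 0.0523 to 0.0736). With anti-miR-873-5p the log2 fold change was 0.76 ± 0.63 (adjusted p = 0.420). Of the exons of Il1b, 1.31% lie opposite an antisense gene, Il1bos, and the kit does not mark strand, so reads of that stretch cannot be assigned.

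Il6 (Entrez 16193, chr5:30013114-30019975) encodes the cytokine that drives the hepatic acute-phase response. Its counts were 1, 0, 0, 0 and 0 in no BDL, 0, 4, 14 and 4 in miR-Ctrl BDL, and 1, 0, 3 and 3 with anti-miR-873-5p. The groups overlapped, since miR-Ctrl BDL mouse 1 and anti-miR-873-5p BDL mouse 2 had no read. The ratio of summed, scaled counts to no BDL was 20.9 in miR-Ctrl BDL (counting interval 3.38 to 862), 9.43 (1.26 to 418) without mouse 3 of that group, which held 14 of its 22 counts, and 6.21 with anti-miR-873-5p (0.798 to 279.9), resting on 1 count in no BDL. Exact permutation tests gave p = 0.0476 and p = 0.127. Differences of Il6 between the ligated groups were not detectable at this depth.

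Il1rn (Entrez 16181, chr2:24336860-24351491), the antagonist of interleukin-1, was among the genes that passed in both comparisons. It was at 3.27, 0.666, 2.22, 1.39 and 13.7 CPM in no BDL mice, at 21.3, 37.9, 460.3 and 31.5 CPM in miR-Ctrl BDL mice, and at 10.1, 26.2, 26.7 and 26.1 CPM in anti-miR-873-5p BDL mice. The miR-Ctrl BDL mice were all above no BDL, and anti-miR-873-5p BDL mouse 1 was below no BDL mouse 5. The log2 fold change was 5.00 ± 1.16 in miR-Ctrl BDL (adjusted p = 0.00844), 2.82 without miR-Ctrl BDL mouse 3 (adjusted p = 0.00978) and 6.18 without no BDL mouse 5 (adjusted p = 0.00426). With anti-miR-873-5p it was 2.40 ± 0.69 (adjusted p = 0.0355) and 3.57 without no BDL mouse 5 (adjusted p = 0.00224). That call was lost when any 1 of no BDL mice 1 to 4 or anti-miR-873-5p BDL mice 3 and 4 was left out (highest adjusted p 0.0897), and in the fit over all 3 groups (adjusted p = 0.0935).

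Cd14 (Entrez 12475) encodes the lipopolysaccharide co-receptor. It was at 2.58, 1.90, 2.56, 1.55 and 12.3 CPM in no BDL mice, at 79.2, 175, 1023 and 81.8 CPM in miR-Ctrl BDL mice, and at 25.7, 102, 70.2 and 71.0 CPM in anti-miR-873-5p BDL mice. Every ligated liver was above every no BDL liver. The log2 fold change was 6.33 ± 1.03 in miR-Ctrl BDL (adjusted p = 0.00155) and 4.01 ± 0.63 with anti-miR-873-5p (adjusted p = 0.00344). Without miR-Ctrl BDL mouse 3 the first was 4.73, and without no BDL mouse 5 they were 7.30 and 4.98. Cd14 stayed past the threshold under every alternative that was run for these comparisons.

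Tlr2 (Entrez 24088, chr3:83836272-83841824) encodes the receptor of bacterial lipopeptides. It was at 1.38, 1.14, 3.15, 4.25 and 26.7 CPM in no BDL mice, at 19.1, 21.4, 35.7 and 29.9 CPM in miR-Ctrl BDL mice, and at 9.31, 4.60, 19.3 and 14.1 CPM in anti-miR-873-5p BDL mice. No BDL mouse 5 was higher than every anti-miR-873-5p BDL mouse, and the other 4 no BDL mice were lower than all ligated mice. The log2 fold change was 1.85 ± 0.79 in miR-Ctrl BDL (adjusted p = 0.0932) and 0.71 ± 0.84 with anti-miR-873-5p (adjusted p = 0.580). Without no BDL mouse 5 these were 3.41 (adjusted p = 0.000381) and 2.27 (adjusted p = 0.0157), so that this 1 mouse decided the call in both.

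Tlr4 (Entrez 21898, chr4:66827551-66846581) encodes the signalling receptor of lipopolysaccharide. It was at 0.344, 1.14, 0.682, 0.573 and 1.75 CPM in no BDL mice, at 2.31, 3.16, 1.75 and 4.84 CPM in miR-Ctrl BDL mice, and at 1.13, 1.13, 3.73 and 4.03 CPM in anti-miR-873-5p BDL mice. Here miR-Ctrl BDL mouse 3 was the lowest of its group, level with no BDL mouse 5, and anti-miR-873-5p BDL mice 1 and 2 stood inside the no BDL range. The log2 fold change was 1.75 ± 0.45 in miR-Ctrl BDL (adjusted p = 0.0134). With anti-miR-873-5p it was 1.51 ± 0.55 (adjusted p = 0.0743, and 0.0373 without no BDL mouse 5). Tlr4 also passed there without anti-miR-873-5p BDL mouse 1 or without mouse 2.

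Nlrp3 (Entrez 216799, chr11:59541569-59566955), the sensor of the inflammasome, was at 0.0861, 0.285, 0.852, 0.736 and 1.91 CPM in no BDL mice, at 2.73, 4.06, 14.7 and 4.17 CPM in miR-Ctrl BDL mice, and at 0.944, 1.58, 3.25 and 5.11 CPM in anti-miR-873-5p BDL mice. The miR-Ctrl BDL mice were all above no BDL, whereas mice 1 and 2 of the anti-miR-873-5p BDL group were below no BDL mouse 5. The log2 fold change was 3.00 ± 0.69 in miR-Ctrl BDL (adjusted p = 0.00817; 2.21 without mouse 3, adjusted p = 0.0111, and 3.66 without no BDL mouse 5). With anti-miR-873-5p it was 1.82 ± 0.68 (adjusted p = 0.0810), and 2.48 without no BDL mouse 5 (adjusted p = 0.0289). Nlrp3 also passed there without anti-miR-873-5p BDL mouse 1.

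Nos2 (Entrez 18126, chr11:78920787-78960226), the inducible nitric oxide synthase, was close to absent from no BDL livers, with 2 counts over the 5 mice. Its counts were 20, 78, 262 and 21 in miR-Ctrl BDL mice and 3, 7, 75 and 24 in anti-miR-873-5p BDL mice. All ligated mice were above all no BDL mice. The ratio of summed, scaled counts to no BDL was 181 (counting interval 49.7 to 1499) in miR-Ctrl BDL, 70.1 (19.0 to 586) without mouse 3, and 48.3 (13.1 to 404) with anti-miR-873-5p. In miR-Ctrl BDL edgeR gave an adjusted p of 0.00251, and with anti-miR-873-5p, where Nos2 was below the filter, the exact permutation test gave its smallest possible p, 0.00794.

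Ptgs2 (Entrez 19225, chr1:150100031-150108234), the inducible cyclooxygenase, had no count in any of the 5 no BDL mice. Its counts were 1, 2, 131 and 8 in miR-Ctrl BDL mice and 2, 1, 10 and 4 in anti-miR-873-5p BDL mice. Every ligated liver held at least 1 read, and miR-Ctrl BDL mouse 3 held most of its group's 142. A floor of 3 counts was set for the whole no BDL group. The ratio of summed, scaled counts to it was 44.9 with miR-Ctrl, 4.32 without mouse 3 of that group, and 5.03 with anti-miR-873-5p. The exact permutation test gave its smallest possible p, 0.00794, in both. The floor allows for counting error in no BDL only, and these ratios carry no interval for the ligated counts. The intervals given for Tnf, Il6 and Nos2 cover counting error only.

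Set against each other, the ligated groups showed no difference past the threshold in any of the 10 genes. In the deposited table of 3 against 3 mice, 8 genes passed the filter and 0 passed the adjusted threshold, as did 0% of the 13746 genes tested by edgeR, where 863 had an unadjusted p under 0.05; DESeq2 called 30 genes, 0 of them among the 10. All 8 fitted differences were negative, meaning lower with anti-miR-873-5p, as were 48.8% of all genes tested, but without anti-miR-873-5p BDL mouse 1 only 3 of the 8 were negative. Of the 8, 1 (Tlr2) was lower at an unadjusted p under 0.05, against 2.57% of all genes, and 1 of the 8 (Cd14) had all anti-miR-873-5p mice below all miR-Ctrl mice, against 4.87%.

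Cd14 in these mice was at 79.2, 175 and 81.8 CPM in miR-Ctrl BDL and at 25.7, 70.2 and 71.0 CPM with anti-miR-873-5p. Its log2 difference was -1.01 ± 0.46 (95% interval -2.09 to 0.08, edgeR adjusted p = 0.781), and anti-miR-873-5p BDL mouse 2, which is not in this table, was at 102 CPM, above 2 of those miR-Ctrl mice. For Tlr2 the log2 difference was -0.72 ± 0.28 (-1.37 to -0.06, adjusted p = 0.775). For Il1rn it was -0.52 ± 0.38 (-1.41 to 0.37). Of the 3 genes with a seed match, Tlr2 and Il1rn were fitted and were not past the threshold in either direction. None of the 13746 genes tested by edgeR was (lowest adjusted p 0.757), so this says nothing about the seed matches.

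The cytokines and the other sensors lay closer to 0. The log2 difference was -0.26 for Tnf (-1.29 to 0.77), -0.19 for Il1b (-1.37 to 1.00), -0.20 for Tlr4 (-1.32 to 0.93) and -0.22 for Nlrp3 (-1.44 to 1.01). Nos2, at 1.21, 4.65 and 1.27 CPM against 0.189, 4.52 and 1.18 CPM, had a log2 difference of -0.28 (-2.51 to 1.94). Each of these intervals reaches below -1 on the log2 scale and above 0, so the data do not show that the groups were alike. Il6 and Ptgs2, below the filter, gave exact permutation p = 0.8 and p = 0.5, where 3 against 3 mice cannot go below 0.1.

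With all 4 mice of each ligated group, the fit brought in miR-Ctrl BDL mouse 3 and anti-miR-873-5p BDL mouse 2. The differences were larger and still 0 of the 7 fitted genes passed. The log2 difference was then -2.33 for Cd14, -2.62 for Il1rn, -2.14 for Nos2, -1.33 for Tnf, -1.20 for Nlrp3 and -1.15 for Tlr2 (edgeR adjusted p 0.980 for each), and that of Tlr4 was -0.25 (adjusted p = 0.988). Tlr2, Cd14 and Il1rn had unadjusted p of 0.0183, 0.0282 and 0.0301. Without miR-Ctrl BDL mouse 3 the mean of Cd14 in miR-Ctrl BDL was 112 in place of 339.7 CPM. That of Ptgs2 was 0.221 in place of 2.89 CPM, which is below the anti-miR-873-5p BDL mean of 0.250 CPM. Without anti-miR-873-5p BDL mouse 2 the mean of its group was 14.2 in place of 11.8 CPM for Tlr2. For Cd14 it was 55.6 in place of 67.3 CPM.

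Markers of several cell types also differed from no BDL. Over all genes tested, 19.1% rose and 2175 of 13072 fell in miR-Ctrl BDL. With anti-miR-873-5p 13.1% rose and 1108 of 13130 fell. Of 8 Kupffer cell markers, 4 rose in miR-Ctrl BDL and 1 with anti-miR-873-5p, the latter near the share of all genes. Their summed level was 105 to 629 CPM in no BDL, 622 to 1453 CPM in miR-Ctrl BDL and 362 to 1196 CPM with anti-miR-873-5p. Of 10 markers of monocytes and recruited macrophages, 10 and 8 rose, with sums of 35.8 to 169, 267 to 593 and 193 to 530 CPM. In both lists no BDL mouse 5 was the highest of its group, and without it 8 and 5 Kupffer cell markers rose, against 20.0% and 14.5% of all genes.

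Of 12 neutrophil markers, 5 and 4 passed the filter and 4 and 3 rose, with sums over 11 of them of 8.56 to 23.5 CPM in no BDL, 26.5 to 274 CPM in miR-Ctrl BDL and 23.2 to 86.1 CPM with anti-miR-873-5p. MiR-Ctrl BDL mouse 3 had the highest neutrophil sum of all mice. It had the lowest sums of its group for Kupffer cell, stellate cell and fibroblast, endothelial and lymphocyte markers. In no BDL, Mmp8, Camp and Ltf had at most 3 counts in any mouse, and none of the 59 markers summed was at 0 throughout a group. Of 8 hepatocyte markers, 5 and 3 fell, and the sum over 7 of them ran from 118588 to 136206 CPM in no BDL, from 50230 to 81434 CPM in miR-Ctrl BDL and from 43996 to 96167 CPM with anti-miR-873-5p. The part of cell numbers in the 10 genes was not tested. All 6 cholangiocyte markers rose in both comparisons. Of 6 stellate cell and fibroblast markers 3 and 2 rose. Of 6 endothelial markers 0 and 1 fell, and of the 8 lymphocyte markers 2 and 1 passed the filter and 1 and 0 fell. Between the ligated groups 0 markers of the 8 lists passed.

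**Figure D3:**
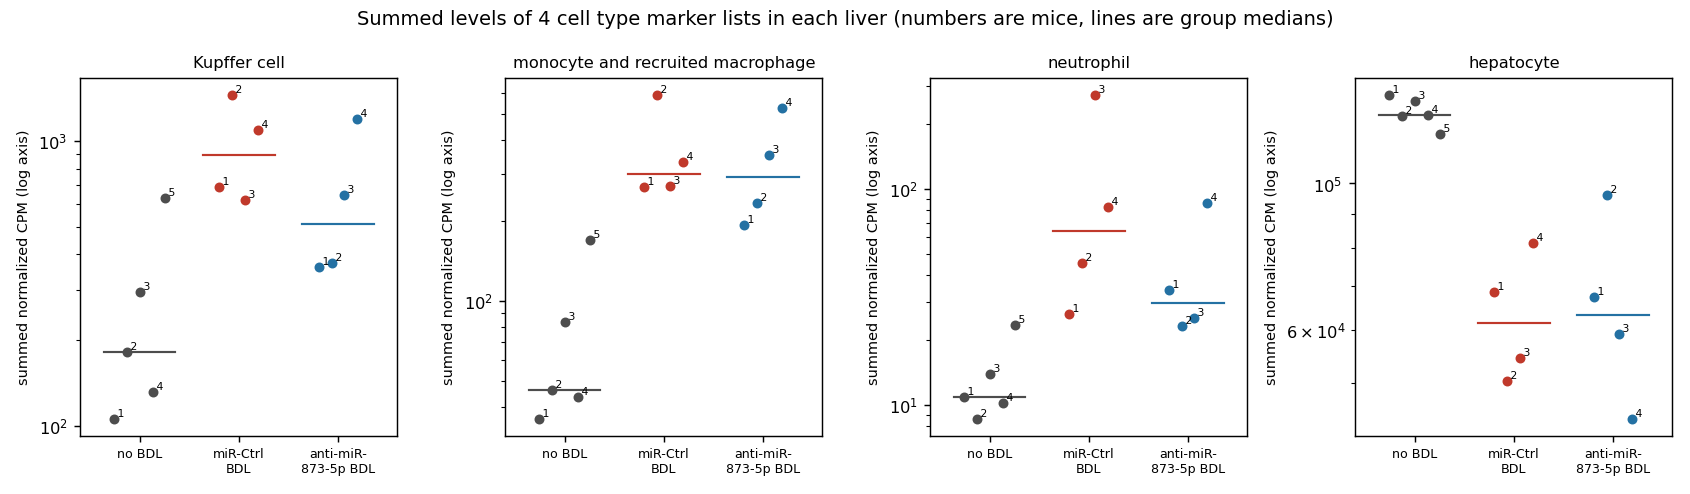
Summed normalized CPM of 4 marker lists in each liver on a log axis, with mouse numbers and group medians as lines. No BDL mouse 5 is the highest of its group for Kupffer cell, monocyte and neutrophil markers, and miR-Ctrl BDL mouse 3 stands at 274 CPM for neutrophil markers.

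The genes around these 10 were followed in 9 lists of 123 genes. In miR-Ctrl BDL 53 of 103 tested rose (51.5%, against 19.1% of all genes tested) and 9 fell (against 2175 of all 13072). The median log2 fold change was 0.77 against -0.01 over all genes. In anti-miR-873-5p BDL 23 of 102 rose (22.5%, against 13.1% of all genes tested) and 6 fell (against 1108 of all 13130), with a median of 0.37. That made 29 past the threshold in all (42 without no BDL mouse 5 and 48 without anti-miR-873-5p BDL mouse 2). Between the ligated groups 0 of 112 passed, with a median of -0.14. The counts of single lists stand beside the same shares of all genes. Without no BDL mouse 5, the count that rose with anti-miR-873-5p went from 1 to 6 among co-receptors and adaptors, and without mouse 2 of the ligated group it went from 3 to 6 among inflammasome genes, from 2 to 5 among TNF genes and from 4 to 7 among Toll-like receptors. In these fits 14.5% and 18.4% of all genes tested rose. These fits of the lists were chosen after seeing the data. Values below are log2 fold changes in miR-Ctrl BDL and then with anti-miR-873-5p, each past the edgeR threshold unless an adjusted p or the filter is named.

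Among the other Toll-like receptors, 6 and 4 of 8 tested rose and 1 fell in both. Tlr13, an endosomal sensor of bacterial ribosomal RNA, rose by 2.65 and 2.61 on the log2 scale (3.37 and 3.33 without no BDL mouse 5). Tlr8, a receptor related to TLR7, rose by 2.15 and 2.50 (2.77 and 3.12 without that mouse), from a no BDL mean of only 0.332 CPM. Tlr1, the partner of TLR2, rose by 2.23 and had a value of 1.64 (adjusted p = 0.0608) with anti-miR-873-5p (2.17 without no BDL mouse 5, adjusted p = 0.0196, and 1.95 without anti-miR-873-5p BDL mouse 2, adjusted p = 0.00853). Tlr5, the flagellin receptor, fell by 2.07 and by 1.52, the latter -1.38 without anti-miR-873-5p BDL mouse 2 (adjusted p = 0.0549). Of the co-receptors and adaptors, 6 and 1 of 14 rose and 0 fell. These are 42.9% and 7.14%, against 19.1% and 13.1% of all genes, so the latter was below the share of all genes. Among the genes that rose were Cd180 (2.01), a receptor related to TLR4, its partner Ly86 (1.77 and 1.59), and Irak3 (2.42), an inhibitor of the pathway. Of these, Cd180 (1.69, adjusted p = 0.0841) and Irak3 (0.90, adjusted p = 0.398) were not past the threshold with anti-miR-873-5p. The Irak3 call rested on miR-Ctrl BDL mouse 3, without which its value was 1.35 (adjusted p = 0.151). Without no BDL mouse 5, Irak3 was at 3.62 and 2.10 and Cd180 at 2.76 and 2.44, all past the threshold. Cd180 also passed without anti-miR-873-5p BDL mouse 2 (1.96, edgeR adjusted p = 0.0290).

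NF-kB subunits and inhibitors rose in 12 and 6 of 16 and fell in 1 of both. The largest rises were those of Tnfaip3, which encodes the inhibitor A20 (3.40 and 2.58), and of the subunit Relb (2.77 and 2.33). The kinase gene Chuk fell by 0.69 and by 0.67. Of the inflammasome genes, 6 and 3 of 12 rose: Mefv, the pyrin gene, by 3.11 and 2.01 (3.78 and 2.68 without no BDL mouse 5), and Casp4, which senses intracellular lipopolysaccharide, by 2.71 and 1.76. Nlrp6, which is known mainly from epithelia, fell by 1.40 and by 0.93.

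In the interleukin-1 family 4 and 0 of 8 rose and 1 and 2 fell. Il33 rose by 2.09 and Il18bp, which neutralizes interleukin-18, by 1.91 in miR-Ctrl BDL. With anti-miR-873-5p they were at 1.13 (adjusted p = 0.105) and 1.32 (adjusted p = 0.0706), and both were past the threshold without mouse 2 of that group (Il33 at 1.37, adjusted p = 0.0288). Il18bp also passed without no BDL mouse 5 (1.82, adjusted p = 0.0117). Il1rap, the shared receptor subunit that interleukin-1 needs to signal, fell by 1.75 and by 1.32. Il18 fell by 0.72 with anti-miR-873-5p and was at -0.45 in miR-Ctrl BDL (edgeR adjusted p = 0.0649). TNF ligands, receptors and signalling genes rose in 7 and 2 of 11 (63.6% and 18.2%, against 19.1% and 13.1% of all genes) and fell in 0. They were led by Tnfrsf12a, the receptor of TWEAK (3.25 and 2.72), and by the lymphotoxin gene Ltb (2.37 and 2.91).

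In the interleukin-6 family 5 and 4 of 11 rose and 2 and 1 fell. Lif rose by 4.53 and 3.87, Clcf1 by 2.68 and 2.58 and the feedback inhibitor Socs3 by 2.82 and 1.91, the former 1.63 without miR-Ctrl BDL mouse 3 (adjusted p = 0.0112). In no BDL, Lif had a mean of only 0.135 and 0.151 CPM in these comparisons and passed the filter only through the ligated mice. Lif could be tested only because it was high there, so the filter favoured its call. Lifr, the LIF receptor, fell by 2.77 and by 2.35. Il11ra1 fell by 0.60 in miR-Ctrl BDL and was at -0.37 with anti-miR-873-5p (edgeR adjusted p = 0.0696). Of the eicosanoid genes 6 and 3 of 14 rose and 1 and 0 fell. Ptgis, the prostacyclin synthase, was at 2.36 and 2.40. Alox5ap, which 5-lipoxygenase needs, was at 2.62 and 2.35 (3.31 and 3.04 without no BDL mouse 5). The prostaglandin-degrading Hpgd fell by 1.07 in miR-Ctrl BDL and was at -0.70 with anti-miR-873-5p (edgeR adjusted p = 0.188). Of the nitric oxide and arginine genes tested in miR-Ctrl BDL, 1 of 9 rose, Arg2 (1.98), which is 11.1% against 19.1% of all genes. In the same comparison 2 fell, Asl (-0.88) and Ass1 (-0.61), and 0 of 8 passed with anti-miR-873-5p. Without miR-Ctrl BDL mouse 3, Arg2 was at 1.07 (adjusted p = 0.0466) and Ass1 at -0.55 (adjusted p = 0.0543), and without no BDL mouse 5 Arg2 was at 1.79 (adjusted p = 0.0552). Without anti-miR-873-5p BDL mouse 2, Asl was at -1.13 (adjusted p = 0.00813) in place of -0.04. The median of this list was below 0 in both comparisons, at -0.37 and -0.11.

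**Figure D4:**
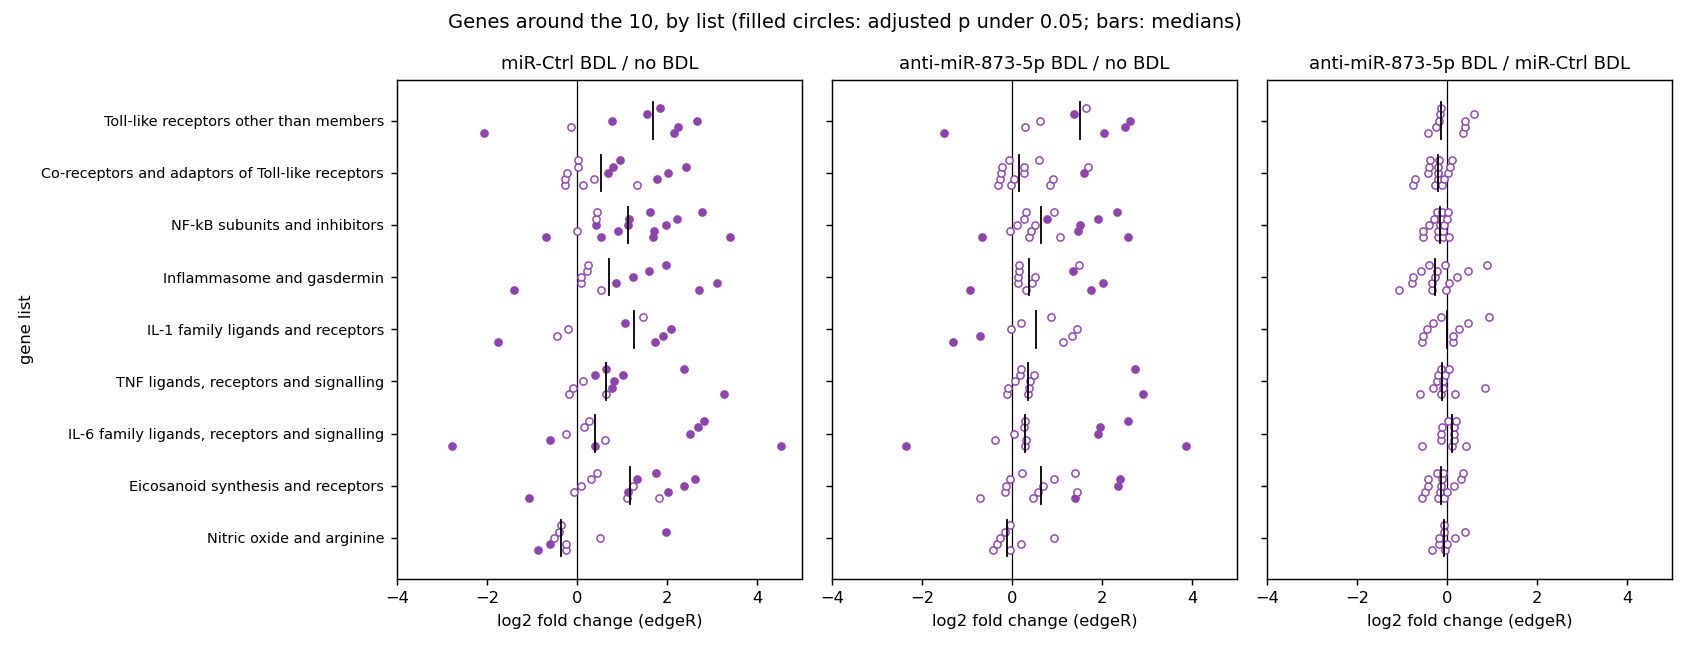
Log2 fold changes of the genes of 9 lists in each comparison; each circle is 1 gene, filled where the edgeR adjusted p was under 0.05, and bars are list medians. Filled circles number 62, 29 and 0 from left to right, and Lif is the rightmost and Lifr the leftmost of its list against no BDL. Lif had a no BDL mean of at most 0.151 CPM and passed the filter only through the ligated mice.

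Levels of the 10 genes were compared with each other per kilobase of annotated exon. In no BDL livers Il1b (median 1.63 CPM per kb, range 0.601 to 3.29), Cd14 (1.48, 0.898 to 7.11), Tlr2 (1.05, 0.379 to 8.86) and Il1rn (0.400, 0.120 to 2.47) came first and overlapped each other. Nlrp3 (0.182), Tlr4 (0.123) and Tnf (0.0970) followed with overlapping ranges, and Il6, Nos2 and Ptgs2 had medians of 0. In both ligated groups Cd14 came first, at a median of 74.1 CPM per kb (45.8 to 591) in miR-Ctrl BDL and 40.8 (14.9 to 59.0) with anti-miR-873-5p. With anti-miR-873-5p its lowest mouse was above the highest mouse of every other member, of which Il1b reached 6.67 CPM per kb. Tlr2, Il1rn and Il1b followed with overlapping ranges, with medians of 5.16 to 8.52 CPM per kb in miR-Ctrl BDL and 2.21 to 4.73 with anti-miR-873-5p. Tnf, Nlrp3, Nos2 and Tlr4 had medians of 0.193 to 1.43 in the ligated groups, and Il6 and Ptgs2 were at the end, at or below 0.0990.

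Ratios of counts within a liver do not depend on its scaling. The ratio of Il1rn to Il1b was 0.4 to 2.18 in no BDL, 3.36 to 7.12 in miR-Ctrl BDL and 2.05 to 15.1 with anti-miR-873-5p. The miR-Ctrl BDL livers were all above no BDL, and in anti-miR-873-5p BDL mouse 4 (2.05) stood below no BDL mouse 5 (2.18) while mouse 2 had the highest ratio of all 13. The ratio of Cd14 to Tlr4 was 1.67 to 7.5 in no BDL, 16.9 to 586 in miR-Ctrl BDL and 17.6 to 90.3 with anti-miR-873-5p, with no overlap between no BDL and the ligated groups. The ratio of Tlr2 to Tlr4 overlapped between all groups, at 1 to 15.3, 6.19 to 20.5 and 3.51 to 8.22. These ratios were chosen after levels had been seen and carry no test.

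**Figure D5:**
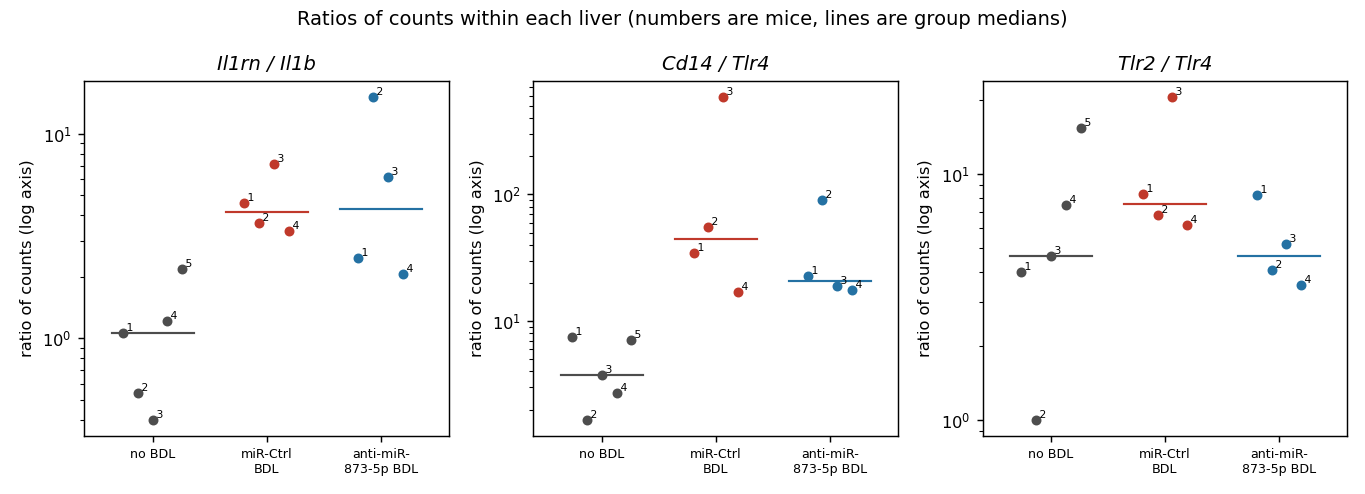
Ratios of read counts between pairs of genes in each liver, on log axes, with mouse numbers and group medians as lines. The Cd14 to Tlr4 ratio separates the ligated livers from no BDL, whereas the Tlr2 to Tlr4 ratio overlaps between groups.

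For each of the 8 members with a mean of at least 1 CPM, the genes with the nearest profile over the mice were found, by the root mean square difference of centred log2 levels, where a lower value is nearer. Nos2 was nearest to Clec4e (0.59), a receptor of mycobacterial glycolipid, and to the neutrophil chemokine Cxcl2 (0.61), against a median of 1.65 over 12101 genes. Nlrp3 was nearest to the pyrin gene Mefv (0.34) and to the kinase gene Alpk1 (0.38), which detects a bacterial sugar, against a median of 1.28. Cd14 was nearest to Il1rn (0.79), itself one of the 10 genes, and to Chil3 (0.82), against a median of 2.71. Tlr2 was nearest to Fgl1 (0.54) and to the adhesion molecule gene Icam1 (0.58), against 1.52. Tlr4 was nearest to Cd300ld4 (0.18) and Pram1 (0.22), against 0.88. Il1rn was nearest to Ier3 (0.74) and Cd14 (0.79), against 2.22, Tnf to Chst11 (0.38) and Slc16a3 (0.43), against 1.17, and Il1b, over 12 mice, to Rinl (0.37) and Pcolce2 (0.39), against 1.01. These mice share groups, so a near profile reflects group levels as well as single mice.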

How the data were processed

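RNA of 13 mouse livers was measured. The authors prepared TruSeq RNA v2 libraries, sequenced 50 nt single reads on a HiScanSQ and mapped them to mm10 with TopHat; the labels also name CASAVA 1.8.2, FastQC, Trim Galore and DESeq2. The authors deposited unnormalized read counts per Entrez gene in 3 tables, 1 per comparison; the counting program is not given in the sources used here. They state that outliers were filtered and do not name the mice. Mice were grouped by the labels, and 0 columns of values were left out.

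The deposited counts went into edgeR 4.0.16 under R 4.3.3 (filterByExpr, TMM, quasi-likelihood test, Benjamini-Hochberg adjusted p under 0.05), DESeq2 1.42.0 as an alternative, and steps tested on simulated data. Normalized CPM and the log2 scale use a pseudocount of 0.5 where logs were taken. Members below the filter were tested with exact two-sided permutation tests of log2(CPM + 0.5) over mice (8 tests, unadjusted). Symbols were matched through RefSeq identifiers, for all 10 members. Between members and transcripts of other genes, at most 0.126% of 50-base windows were shared. Depth was 12185333 to 19689037 counts per mouse. Nothing in the labels says whether mice of a group shared a cage or litter; p-values measure the spread between mice. The members, gene lists and markers were chosen with earlier results of these data known. Named list genes are up to 2 per direction and comparison with no BDL with the largest change past the threshold (Tlr1, Tlr8, Ly86, Clcf1 and Socs3 are named in both comparisons), and nearest profiles are the nearest 2 other genes with a mean of at least 1 CPM, members included. Sums of markers leave out 4 genes whose counts differ between tables and 1 that was not analysed here.

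Alternatives were library size alone, DESeq2 size factors, the Wald test of DESeq2, 2 other filters (1 count in any mouse, or 10 counts on average), a joint fit of all 3 groups, the mouse number as a replicate block, an adjusted p of 0.1, all 4 mice per ligated group, leaving out each mouse in turn and, chosen after seeing the data, leaving out the mice that stand apart.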

Additional observations from a re-analysis of the deposited data

Results flagged for a closer look

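In 25 groups of 4 or 5 mice with over 3 counts in any mouse, 10 held a mouse far from the others by Dixon's ratio. This is the gap to the nearest mouse divided by the range, taken on CPM without logs. About 1 group in 20 would be flagged if levels were normally distributed, which was not tested. Members of 1 mouse are not independent, and neither are these 10 groups. MiR-Ctrl BDL mouse 3 was the far mouse in 6 of them: Il1rn (ratio 0.962; 460.3 CPM, next 37.9), Ptgs2 (0.961; 10.9, next 0.484), Cd14 (0.898; 1023, next 175), Il1b (0.895; 64.7, next 11.2 in the same table), Nlrp3 (0.880; 14.7, next 4.17) and Nos2 (0.833; 21.8, next 4.65). Its neutrophil marker sum was 274 CPM against 26.5 to 82.8 CPM in the other miR-Ctrl BDL mice. Its Kupffer cell sum was the lowest of its group (622 CPM, next 687). So were its sums for endothelial (30.8, next 81.3), stellate cell and fibroblast (85.2, next 138) and lymphocyte markers (1.25, next 2.91). The part of any of these was not tested.

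No BDL mouse 5 was far above the other no BDL mice in Cd14 (0.904; 12.3, next 2.58), Tlr2 (0.878; 26.7, next 4.25) and Il1rn (0.800; 13.7, next 3.27). Its Kupffer cell marker sum was 629 CPM, next 295 CPM. Anti-miR-873-5p BDL mouse 1 was far below its group in Il1rn (0.963; 10.1, next 26.1).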

How the results depend on the processing

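Of 367 values of single members under alternatives, 320 kept direction and side of the threshold, 13 lost and 23 gained the call, and 11 reversed, 10 of them between the ligated groups, where 0 were called. The direction of every call against no BDL held under each alternative; the cause of the changes was not tested. Scaling by library size alone moved the median of all genes to 0.79 and 0.82 against no BDL, with 9635 and 10194 genes called (97.1% and 98.7% of them higher, against 53.4% and 60.8%). Every member tested stayed above that shift, the lowest being Tlr2 (1.57) and Il1b (1.61) with anti-miR-873-5p.

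Members past the threshold in miR-Ctrl BDL stayed at 6 to 8, also leaving out any mouse; DESeq2 gave Il1rn no adjusted p. With anti-miR-873-5p 2 became 5 with library size alone, 4 with DESeq2's Wald test, 5 with all genes of at least 1 count, 4 with a mean of at least 10 counts, 4 with the replicate block, 4 at an adjusted p of 0.1, 6 without no BDL mouse 5 and anti-miR-873-5p BDL mouse 2 (chosen after seeing the data; 4819 genes, against 2823), and 1 to 5 leaving out any mouse (1261 to 4317 genes; 3775 to 5710 in miR-Ctrl BDL, against 4666). List genes past the threshold there went from 29 to 42 and 48 when no BDL mouse 5 or anti-miR-873-5p BDL mouse 2 was left out, and in miR-Ctrl BDL from 62 to 66 and 69 when no BDL mouse 5 or miR-Ctrl BDL mouse 3 was (chosen after seeing the data). Between the ligated groups the Wald test called 30 genes, and leaving out any mouse 0 to 1.

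Il1b reversed to 0.17 under the block between the ligated groups and ran from -0.00672 (without mouse 4) to 1.09 against no BDL with anti-miR-873-5p when leaving out any mouse. Leave-one-out ranges that cross 0 between the ligated groups were -0.94 to 0.0861 for Il1b, -1.74 to 0.66 for Nos2, -0.49 to 0.18 for Tlr4, -0.79 to 0.20 for Nlrp3 and -0.57 to 0.00919 for Tnf. The labels tie the mouse numbers to no shared animal, litter or day: deviations of same-numbered mice correlated by -0.20 to 0.35 and not above 0.1 in every pair, so the replicate block (4063, 2195 and 0 genes called) is no paired test; it called 8, 4 and 0 members. Among the members, depth limits Il6, Ptgs2, Nos2 and Tnf, with at most 3 counts per mouse in no BDL. Of the list genes, depth limits Lif, with a no BDL mean of 0.135 and 0.151 CPM.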
